A study of Mus musculus with 12 samples.

Results

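Hearts of mouse embryos that lacked the transcription factor gene Tbx5 (Tbx5 KO) were compared with wild-type (WT) hearts of the same age, E8.75 (counted in days of gestation). The comparison used 3 Tbx5 KO arrays and 3 WT arrays, which are 6 of the 12 Affymetrix arrays in the study, and covered every gene with a probe set that carried exactly 1 gene symbol (21789 probe sets, 19938 genes). The other 6 arrays were of double KO hearts, which lacked Tbx5 and Nkx2-5, and of Nkx2-5 KO hearts, 3 of each, and they give the same loss of Tbx5 where Nkx2-5 was lacking as well. Hearts were microdissected, and the titles number the arrays of a genotype as biological replicates. The labels give neither the allele, the strain nor the number of embryos behind an array, so p-values measure the spread between arrays only. That spread was estimated within the genotypes over all 12 arrays. Both genotypes carried intact Nkx2-5, and the question was which heart genes depend on Tbx5 in its presence.

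Tbx5 is a T-box transcription factor that binds DNA beside Nkx2-5 and Gata4 at heart genes. In the mouse it is made in the inflow end of the heart tube, the atria and the left ventricle, and embryos without it die with a heart tube whose inflow end stays small. At this stage the tube is looping, and its outer curvature begins to form chamber muscle, which switches on the natriuretic peptides, fast gap junctions and calcium handling proteins. In people, loss of 1 copy of TBX5 causes Holt-Oram syndrome, with defects of the atrial septum, conduction and forelimb.

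Levels are log2 values as deposited, and a difference is the Tbx5 KO mean minus the WT mean on that scale, given ± the fit's SE (standard error), for 3 arrays in each group (n = 3). Calls are at a p under 0.05 after adjustment over the 19938 genes. Over all 35557 probe sets, array medians lay between 8.05 and 8.16. Pearson correlations of pairs of arrays, taken across the same probe sets (not independent replicates), ran between 0.974 and 0.984 within a group and between 0.97 and 0.98 between the groups. Markers of cardiac muscle were among the highest signals on all 6 arrays, except Nkx2-5, which was at 9.31 to 9.38. Actc1, cardiac actin, was at 14.14, 14.12 and 14.11 in Tbx5 KO and at 14.13, 14.09 and 14.10 in WT hearts. The WT arrays differed among themselves in blood genes: the median of 11 erythroid genes was 9.34, 9.36 and 9.27 in Tbx5 KO and 11.08, 8.54 and 10.33 in WT hearts, with WT replicate 2 below the Tbx5 KO arrays and WT replicates 1 and 3 above them.

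The Tbx5 probe set did not fall. It read 10.73, 10.42 and 10.45 in Tbx5 KO hearts, against 10.15, 10.13 and 9.90 in WT hearts, a difference of 0.47 ± 0.15 that was not called (adjusted p = 0.127). Which exons the mutant lacks is not in the labels, and a transcript from a deleted locus can keep the stretch the probes read, so this value does not check the genotype. Nkx2-5 differed by 0.00 ± 0.11.

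In all, 461 genes (2.31%) differed, of which 199 (0.998% of genes) rose and 262 (1.31%) fell. The median difference was 0.75 among those that rose and -0.73 among those that fell, against 0.01 over all genes. At least 1 log2 unit was reached by 49 that rose and 68 that fell, and at least 2 units by 7 and 7. All 461 had values that did not overlap between the groups, as did 4200 genes (21.1%) in all. After median centring of the arrays the split was 131 higher and 294 lower, without WT replicate 2 it was 230 and 235, and without Tbx5 KO replicate 2 it was 154 and 140. The count of 461 was 216, 294 and 246 without Tbx5 KO replicates 1, 2 and 3, and 256 and 212 without WT replicates 1 and 3.

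Natriuretic peptides and other genes of chamber muscle gave some of the largest falls. Nppa and Nppb encode the atrial and brain natriuretic peptides, hormones that forming chamber muscle makes first. Nppa read 10.45, 10.09 and 9.63 in Tbx5 KO hearts, against 13.29, 13.52 and 13.29 in WT hearts, a 9.92-fold fall (-3.31 ± 0.26, adjusted p = 3.74e-05). Nppb read 10.08, 9.78 and 8.99, against 12.79, 13.13 and 12.49 in WT hearts (-3.19 ± 0.26, adjusted p = 4.71e-05). For both genes, every Tbx5 KO value lay below every WT value. Corin, the protease that activates the atrial peptide, fell by 0.68 ± 0.14 (adjusted p = 0.0262), and it lost its call without WT replicate 2 (0.0644), WT replicate 3 (0.0643), Tbx5 KO replicate 1 (0.0843) or Tbx5 KO replicate 3 (0.0931) and with only the arrays compared (0.0524). The receptor genes did not pass: Npr1 was 0.04 ± 0.14, Npr2 -0.07 ± 0.15 and Npr3 -0.53 ± 0.19. Thus 3 of 7 measured genes of the natriuretic peptide system fell and 0 rose, where 1.31% of all genes fell.

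Among 22 measured genes of the chambers and their trabeculae, 9 were lower and 0 higher, against 1.31% lower among all genes, and the list median was -0.23. Bmp10, a growth factor that trabecular muscle secretes, had a WT level of 10.16, 10.86 and 10.20 that fell to 7.38, 7.17 and 7.46 in Tbx5 KO hearts (-3.07 ± 0.21, adjusted p = 1.79e-05). Cited1, a transcriptional co-regulator of trabecular muscle, fell by 1.67 ± 0.22 (adjusted p = 0.00225), and Hopx, a homeodomain protein without DNA binding of its own, by 1.30 ± 0.11 (adjusted p = 5.52e-05). Other members of the list were not called. Irx4, a ventricular homeobox gene, was -0.03 ± 0.17, Irx3 -0.04 ± 0.21, Irx5 -0.05 ± 0.12, and the Notch target Hey1 -0.02 ± 0.25. Without WT replicate 2 the list had 6 lower. In whole hearts, fewer cells of a type and less RNA per cell cannot be told apart.

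Promoters of genes that fell most are shown because the T-box motif AGGTGT could be looked for in them. The RefSeq table (GRCm38.p6) held a promoter for 15563 of the genes tested, each covering 250 bases before to 50 bases after the start, and both strands were searched. For a gene with several listed promoters only the first was searched. The motif was in 28 of 198 promoters of genes that fell (14.1%), in 10 of 132 of genes that rose (7.58%) and in 1933 of all 15563 (12.4%). The longer motif AGGTGTGA, which contains it, was in 4 (2.02%), 1 (0.758%) and 172 (1.11%) of the same sets. Among genes that fell by at least 1 log2 unit, AGGTGT was in 6 of 57 promoters (10.5%), and among those that rose by at least 1 in 2 of 27 (7.41%). The GATA motif AGATAA was in 9.09% of promoters of genes that fell, 13.6% of those that rose and 9.55% of all, and in 12.3% and 29.6% of those that fell or rose by at least 1. The NKX2-5 motif AAGTG was in 43.4%, 48.5% and 44.8%, and in 40.4% and 63% of those that fell or rose by at least 1. Vsnl1 had 2 listed promoters, so its other promoter was not searched. Of the promoters searched for Vsnl1, Nppa, Nppb, Bmp10, Cacna2d2 and Kcna5, only that of Nppa held AGGTGT, at -248 to -243 from the start on the minus strand. It also held AAGTG at -239 to -235 and at -65 to -61. The 250 bases before the start are given for 3 of these genes, in plus strand letters, with capitals for the T-box motif in Nppa (chr4:148000472-148000721) and for the GATA motif in Nppb (chr4:147985650-147985899) and Bmp10 (chr6:87428744-87428993), where it lay at -84 to -79 in Nppb and at -219 to -214 and -33 to -28 in Bmp10.
Nppa: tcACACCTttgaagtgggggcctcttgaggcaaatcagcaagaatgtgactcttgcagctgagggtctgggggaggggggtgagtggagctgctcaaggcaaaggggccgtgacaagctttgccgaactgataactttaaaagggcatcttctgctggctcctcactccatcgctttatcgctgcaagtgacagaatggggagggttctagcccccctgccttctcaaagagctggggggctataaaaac
Nppb: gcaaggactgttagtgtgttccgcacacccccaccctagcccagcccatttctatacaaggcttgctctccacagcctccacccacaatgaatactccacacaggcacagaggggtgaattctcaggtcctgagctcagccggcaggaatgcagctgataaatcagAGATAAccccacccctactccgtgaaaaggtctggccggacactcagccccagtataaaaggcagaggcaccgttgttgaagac
Bmp10: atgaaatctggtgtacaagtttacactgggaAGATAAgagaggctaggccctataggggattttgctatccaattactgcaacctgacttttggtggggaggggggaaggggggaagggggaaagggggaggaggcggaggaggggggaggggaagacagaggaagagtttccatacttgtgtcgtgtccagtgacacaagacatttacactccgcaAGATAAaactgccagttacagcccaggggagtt

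Genes of the inflow end of the tube were the other large block of falls. Of 18 measured genes of the inflow tract, atrium and atrioventricular canal, 9 fell and 1 rose, against 1.31% and 0.998% of all genes, with a list median of -0.79. Without WT replicate 2 the counts were 8 and 1, and over all single arrays left out 7 to 8 fell and 1 rose. The lists were chosen with earlier results of these data known. Vsnl1, a calcium sensor that marks the sinus venosus of the mouse embryo, had the largest fall among all genes under the naming rule. It read 7.33, 7.50 and 6.84 in Tbx5 KO hearts, against 10.78, 10.60 and 11.32 in WT hearts, a 12.8-fold fall (-3.67 ± 0.19, adjusted p = 1.49e-06). Nr2f2 and Nr2f1 encode COUP nuclear receptors, and Nr2f2 sets atrial identity in the mouse. Nr2f2 read 8.55, 8.12 and 8.52, against 9.91, 10.37 and 10.43 in WT hearts (-1.84 ± 0.24, adjusted p = 0.00154). Nr2f1 read 7.91, 8.07 and 8.20, against 9.48, 9.46 and 9.41 in WT hearts (-1.39 ± 0.16, adjusted p = 0.000707). The WT values of Nr2f1 were almost equal, and all 3 mutant values lay clearly below them.

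The sinus region genes Hcn4 and Shox2 fell too, while the list of pacemaker and sodium channels had 1 lower of 6 and a median of 0.04. Hcn4, the channel that carries the pacemaker current, read 8.18, 8.60 and 8.90 in Tbx5 KO hearts, against 9.65, 9.74 and 9.95 in WT hearts (-1.22 ± 0.18, adjusted p = 0.00416). Shox2, the homeobox gene that keeps sinus node cells from a working muscle fate, read 6.52, 6.53 and 6.41, against 7.48, 7.40 and 7.74 in WT hearts (-1.06 ± 0.15, adjusted p = 0.00347). Its levels were low in both groups, and the groups did not overlap. Angpt1, which atrial muscle sends to the endocardial receptor Tek, fell by 1.74 ± 0.19 (adjusted p = 0.000554). Tbx18, a T-box gene of the sinus horns and epicardium, fell by 0.96 ± 0.20 (adjusted p = 0.0276), and the call ended without any 1 of the Tbx5 KO arrays (0.0698 to 0.0923) and with only the arrays compared (0.0738). Bmp2, a ligand of the atrioventricular canal, fell by 1.24 ± 0.28 (adjusted p = 0.0398), which ended without any array but Tbx5 KO replicate 3 (0.0848 to 0.142). Other genes of the region were not called. Isl1, a progenitor and sinus node factor, was 0.45 ± 0.31, Tbx3, which represses chamber genes in the conduction system, -0.48 ± 0.16 (adjusted p = 0.153), Tbx2 0.17 ± 0.10, and the atrial light chain Myl4 0.01 ± 0.08. The 1 member that rose was Wnt2, described with the other ligands.

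**Figure D1:**
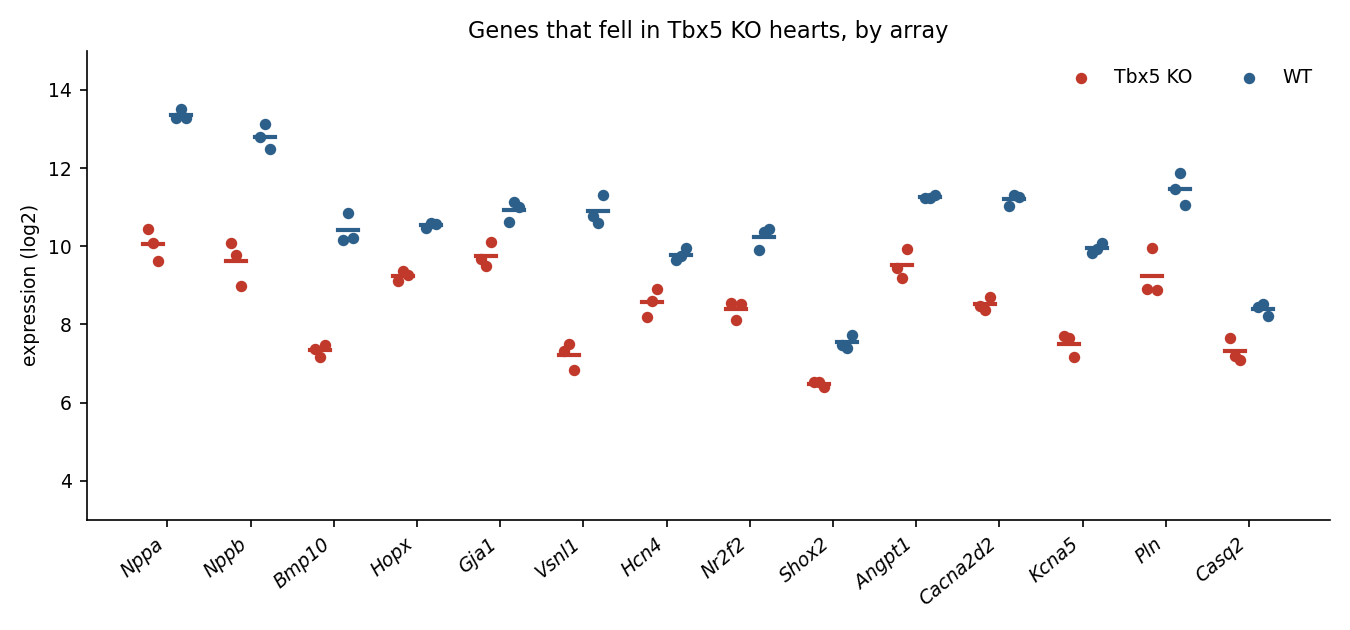
Log2 expression (y axis) of 14 genes that fell, with 3 Tbx5 KO arrays in red left of 3 WT arrays in blue and a bar at each mean. In each of the 14 genes every Tbx5 KO point lies below every WT point, with Nppa between 9.63 and 10.45 in Tbx5 KO and between 13.29 and 13.52 in WT.

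Calcium handling genes of the sarcoplasmic reticulum fell in part. Pln encodes phospholamban, the brake on the calcium pump, and read 8.90, 9.95 and 8.88 in Tbx5 KO hearts, against 11.46, 11.86 and 11.05 in WT hearts (-2.21 ± 0.27, adjusted p = 0.00105). Atp2a2, the pump itself, fell by 0.56 ± 0.08 (adjusted p = 0.00512), to 13.03, 13.02 and 12.95 in Tbx5 KO, against 13.54, 13.56 and 13.57 in WT hearts. Casq2, which stores calcium in the reticulum, fell by 1.08 ± 0.16 (adjusted p = 0.00501). The pump gene was thus still near the top of the scale, while its inhibitor lost more on the log2 scale. Of 16 members 4 fell and 0 rose, where 1.31% of all genes fell. Trdn, the anchor of the release complex, was among those that fell (-0.91 ± 0.17, adjusted p = 0.0143). Its call ended without WT replicate 3 (0.0643), Tbx5 KO replicate 1 (0.0556) or Tbx5 KO replicate 2 (0.0557), and its 19 probe sets ran from -1.72 to 0.11. Ryr2, the release channel, was -0.10 ± 0.12, and Slc8a1, the sodium-calcium exchanger, 0.05 ± 0.11.

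Single channel subunits changed within lists whose medians were near 0 (0.03 for calcium and -0.03 for potassium channels). Cacna2d2, an auxiliary subunit that brings calcium channels to the membrane, read 8.47, 8.38 and 8.69 in Tbx5 KO hearts, against 11.02, 11.32 and 11.27 in WT hearts (-2.69 ± 0.15, adjusted p = 2.41e-06). Cacna1c, the pore of the main cardiac L-type channel, rose by 0.70 ± 0.13 (adjusted p = 0.0162), and it lost its call without WT replicate 3 (0.0743), Tbx5 KO replicate 1 (0.0604) or Tbx5 KO replicate 3 (0.0666). Of 11 calcium channel subunits 2 rose and 1 fell (0 and 1 without WT replicate 3 or without Tbx5 KO replicate 3), where 2.31% of all genes were called. Kcna5, a potassium channel of atrial repolarisation, read 7.71, 7.65 and 7.16, against 9.82, 9.94 and 10.08 in WT hearts (-2.44 ± 0.19, adjusted p = 3.74e-05). Among 19 potassium channel subunits 2 fell and 0 rose, where 1.31% of all genes fell. The second was Kcnj3, a subunit of the acetylcholine-gated channel (-0.51 ± 0.11, adjusted p = 0.0348), whose call ended without any array but WT replicate 3 (0.0672 to 0.131) and with only the arrays compared (0.0706).

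Gap junction genes of fast conduction fell. Gja1, connexin 43, read 9.68, 9.50 and 10.10 in Tbx5 KO hearts, against 10.63, 11.14 and 11.00 in WT hearts (-1.16 ± 0.18, adjusted p = 0.00592). Gja5, connexin 40 of atrial and conduction muscle, read 8.63, 9.29 and 7.50, against 10.25, 10.24 and 9.97 in WT hearts (-1.68 ± 0.36, adjusted p = 0.0316). Its mutant values were widely spread, and the call ended without any array but Tbx5 KO replicate 2 (0.0682 to 0.099) and with only the arrays compared (0.0727). Popdc3, a cyclic AMP binding membrane protein of muscle, fell by 0.96 ± 0.09 (adjusted p = 0.000178). These 3 of 16 measured connexins, Popeye proteins and adhesion genes fell, and 0 rose, where 1.31% of all genes fell. Connexin 45 (Gjc1) was 0.23 ± 0.10, N-cadherin (Cdh2) -0.04 ± 0.09 and desmoplakin (Dsp) -0.15 ± 0.12.

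Leading genes of the contractile apparatus were not called, and 1 member of each of its 3 lists fell, where 1.31% of all genes fell. Myh6, the alpha myosin heavy chain, read 12.75, 12.62 and 12.73 in Tbx5 KO hearts, against 12.90, 12.66 and 12.88 in WT hearts (-0.11 ± 0.14). Myh7, the beta chain, was 0.19 ± 0.10, the ventricular light chain Myl2 -0.25 ± 0.09 (adjusted p = 0.191) and Actc1 0.02 ± 0.07, none of them called. Of 13 genes of the thick filament 1 fell, Myl1 (-0.78 ± 0.18, adjusted p = 0.0391, ended without any array but WT replicate 3, 0.0534 to 0.143, and with only the arrays compared, 0.0517). Of 12 thin filament genes 1 fell, Tnni3, the cardiac inhibitory troponin (-0.45 ± 0.09, adjusted p = 0.0232, ended without any array but WT replicate 3, 0.0558 to 0.0885, and with only the arrays compared, 0.0504). Of 17 genes of the Z-disc 1 fell, Myoz2, which ties calcineurin to the disc. It read 8.04, 7.66 and 7.54 in Tbx5 KO, against 9.76, 10.10 and 8.67 in WT hearts (-1.76 ± 0.31, adjusted p = 0.0114). None of these lists held a gene that rose.

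Among other cardiac transcription factors, more rose than fell. Hand1, a basic helix-loop-helix factor of the outer curvature and left ventricle, read 10.67, 10.35 and 10.56 in Tbx5 KO hearts, against 9.44, 9.04 and 9.56 in WT hearts (1.18 ± 0.13, adjusted p = 0.000462). Myocd encodes myocardin, the co-activator of SRF at muscle genes, and read 10.96, 10.92 and 10.96, against 10.48, 10.22 and 10.33 in WT hearts (0.60 ± 0.10, adjusted p = 0.0062). The mutant values of Myocd were almost equal, and the groups of both genes did not overlap. Hand2, the partner of Hand1 in the right ventricle and outflow tract, rose by 0.54 ± 0.10 (adjusted p = 0.0144), and it lost its call without WT replicate 1 (0.0518) or WT replicate 3 (0.052) and with only the arrays compared (0.0517). Gata6 was 0.46 ± 0.11 (adjusted p = 0.0521), Gata4 0.12 ± 0.13, Mef2c 0.30 ± 0.09 and Tbx20 0.36 ± 0.14, none of them called. Of 28 cardiac transcription factors 3 rose, against 0.998% of all genes, and 1 fell, which was Hopx, with a list median of 0.19. Hand1 is also a gene of trophoblast, whose markers are given with the placental genes.

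Genes of the Wnt pathway rose in 3 cases. Wnt5a, a ligand of the non-canonical pathway, read 10.36, 10.19 and 10.49 in Tbx5 KO hearts, against 8.99, 8.88 and 8.85 in WT hearts (1.44 ± 0.13, adjusted p = 8.23e-05). Lef1, the DNA-binding partner of beta-catenin and itself a target of the pathway, read 10.70, 10.56 and 11.01, against 9.36, 9.26 and 9.44 in WT hearts (1.40 ± 0.13, adjusted p = 0.000138). Wnt2, a ligand of the inflow tract in the mouse, read 9.83, 9.73 and 10.02, against 8.58, 8.62 and 9.02 in WT hearts (1.12 ± 0.19, adjusted p = 0.00969). In all 3 genes the lowest mutant value was well above the highest WT value. They were 3 of 25 measured ligands, modulators and targets, with 0 falling, where 0.998% of all genes rose. The common readouts of beta-catenin activity did not pass, with Axin2 at 0.16 ± 0.13, Nkd1 at 0.28 ± 0.15, Sp5 at -0.07 ± 0.12 and Notum at -0.07 ± 0.09.

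The BMP ligands split. Bmp10 and Bmp2 fell as above, while Bmp5, a ligand made by early myocardium, rose to 12.59, 12.41 and 12.49 in Tbx5 KO hearts, against 11.99, 11.97 and 11.89 in WT hearts (0.55 ± 0.09, adjusted p = 0.00595). Bmp4 rose by 0.77 ± 0.19 (adjusted p = 0.0499), and lost its call without any 1 of the 6 arrays (0.0722 to 0.153), with median centring (0.0752), with only the arrays compared (0.0581) and over every probe set (0.056). Of 21 genes of the BMP list, then, 2 rose and 2 fell (1 and 1 without WT replicate 3 or Tbx5 KO replicate 1), where 2.31% of all genes were called. The pathway's target genes did not pass, with Id1 at -0.13 ± 0.32, Id2 at 0.35 ± 0.16, Id3 at -0.52 ± 0.23 and Smad6 at 0.06 ± 0.12. Hedgehog, Notch and retinoic acid lists had 0 called of 12, 15 and 16 genes, and their medians were 0.04, 0.03 and 0.12. Of 18 second heart field genes 1 rose, Tdgf1, which encodes the Nodal co-receptor Cripto (1.47 ± 0.31, adjusted p = 0.0298). It read 11.87, 11.89 and 12.38 in Tbx5 KO, against 11.41, 9.95 and 10.37 in WT hearts, and the call ended without any array but WT replicate 1 (0.0641 to 0.112) and with only the arrays compared (0.0768).

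**Figure D2:**
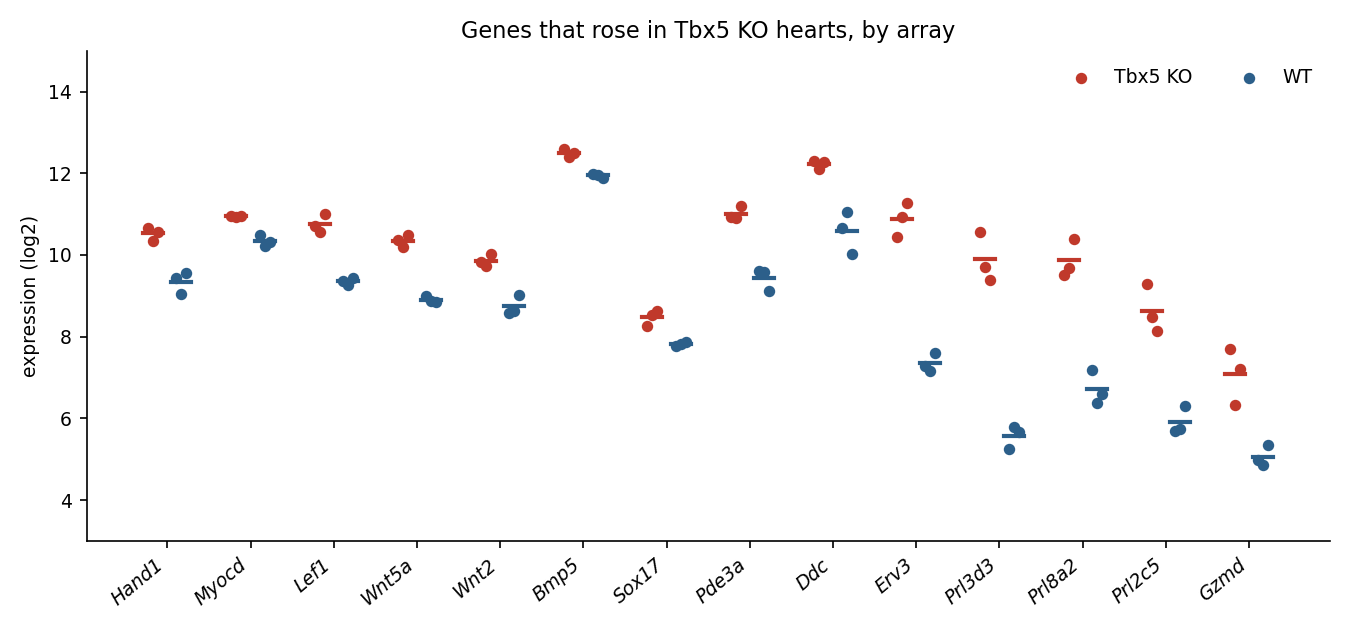
Log2 expression (y axis) of 14 genes that rose, with 3 Tbx5 KO arrays in red left of 3 WT arrays in blue and a bar at each mean. Every Tbx5 KO point lies above every WT point of the same gene, and the placental genes at the right, such as Prl3d3 at 9.40 to 10.56 against 5.25 to 5.79, are furthest apart.

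Genes of placenta and decidua gave the largest rises. Prl3d3, a gene of the placental lactogen family, read 10.56, 9.71 and 9.40 in Tbx5 KO hearts, against 5.25, 5.79 and 5.67 in WT hearts (4.32 ± 0.35, adjusted p = 4.71e-05). Prl8a2, decidual prolactin-related protein, read 9.52, 9.69 and 10.39, against 7.18, 6.37 and 6.59 in WT hearts (3.15 ± 0.27, adjusted p = 5.47e-05). Prl2c5, of the proliferin family, read 9.28, 8.48 and 8.15, against 5.70, 5.73 and 6.30 in WT hearts (2.73 ± 0.31, adjusted p = 0.000604). All 3 were near the bottom of the scale in WT, and all 3 belong to families with near-identical copies, so a probe set may read RNA of a sister gene. Prl7a1 (1.93 ± 0.17, adjusted p = 8.23e-05) and Prl4a1 (1.13 ± 0.14, adjusted p = 0.00105), relatives in the same gene cluster, rose as well.

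Of 31 measured genes of trophoblast and decidua, 4 rose and 0 fell, where 0.998% of all genes rose, with a list median of 0.11. With dim probe sets left out, which removes other members that rose, 1 was called. The summed level of the list was 12.36 to 12.50 on the Tbx5 KO arrays and 11.60 to 11.71 on the WT arrays. That sum counts the 4 genes that rose again, and 27 of the 31 members were not called. Of the 6 trophoblast markers 2 were measured with 1 symbol, Prl4a1, which rose (1.13, adjusted p = 0.00105), and Tpbpa. Tpbpa, the marker of the placental spongiotrophoblast, was near the bottom of the scale in both groups, at 5.78, 5.56 and 5.46 in Tbx5 KO and 5.48, 5.46 and 5.51 in WT hearts. The decidual markers Hoxa10 (0.16 ± 0.15), Hoxa11 (0.44 ± 0.12, adjusted p = 0.0882) and Pgr (0.08 ± 0.12) were not called, while Prl8a2, of the same marker set, rose (3.15, adjusted p = 5.47e-05). Erv3, an endogenous retroviral gene, read 10.43, 10.94 and 11.27, against 7.28, 7.16 and 7.60 in WT hearts (3.54 ± 0.19, adjusted p = 1.49e-06). Gzmd, a granzyme made in the pregnant uterus, rose by 2.03 ± 0.29 (adjusted p = 0.00362), and Rhox9, a homeobox gene of placenta and gonad, by 1.88 ± 0.15 (adjusted p = 3.74e-05). Whether these RNAs came from the heart or from tissue carried over in dissection was not tested, and the same holds for Hand1.

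Markers of the other cell types of the heart are set beside all genes, of which 2.31% were called. For lists of this size, 0 called is near that share. Of 23 genes of endocardium and endothelium 0 were called, with a median of -0.02, and Pecam1 was -0.09 ± 0.18 and Cdh5 0.09 ± 0.15. Tek, the receptor for Angpt1, was -0.73 ± 0.23 (adjusted p = 0.127). The epicardial list had 1 higher and 3 lower of 16 genes, against 0.998% higher and 1.31% lower among all genes, and a median of -0.51. Its summed level, in which bright genes weigh most, was 13.13, 12.92 and 12.94 on the Tbx5 KO arrays. On the WT arrays it was 12.90, 13.60 and 12.95, so that WT replicate 2 alone was higher by the sum. Its median on each array was 7.66, 7.71 and 7.72 in Tbx5 KO and 7.95, 8.74 and 8.08 in WT hearts, without overlap. Its calls were Itga4, Tbx18 and Lrrn4, which fell, and Podxl, which rose, and none of the 4 held without every array in turn, since 0 were called without Tbx5 KO replicate 1 or 3, 1 without WT replicate 3 or Tbx5 KO replicate 2, and 4 (all lower) without WT replicate 1, against 2 with only the arrays compared. The proepicardial marker Tcf21 was -0.49 (adjusted p = 0.584) and Wt1 -0.49 (adjusted p = 0.224). The foregut and visceral endoderm list had 1 higher and 0 lower of 24 genes, the endoderm factor Sox17, which read 8.26, 8.53 and 8.63 in Tbx5 KO, against 7.76, 7.82 and 7.88 in WT hearts (0.66 ± 0.11, adjusted p = 0.0065). Smooth muscle, neural crest, somite and Hox lists had 0 called of 12, 16, 12 and 14 genes.

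Erythroid genes varied more among the WT arrays than among the Tbx5 KO arrays. The summed erythroid level was 15.03 to 15.09 on the Tbx5 KO arrays and 15.83, 14.68 and 15.75 on WT replicates 1, 2 and 3. Of 11 erythroid genes 0 were called, where 2.31% of all genes were, and 5 were called lower without WT replicate 2. Pf4, a chemokine of platelets and primitive macrophages, read 7.45, 6.96 and 6.66 in Tbx5 KO, against 10.72, 9.40 and 10.50 in WT hearts, and its difference of -3.19 ± 0.88 was not called (adjusted p = 0.0876). Lyz2, a lysozyme of myeloid cells, fell by 1.07 ± 0.20 (adjusted p = 0.0156), and lost its call without WT replicate 1 (0.0629), WT replicate 3 (0.0643) or Tbx5 KO replicate 1 (0.0646). It was 1 of 17 genes of other blood cells that fell, with 0 rising, where 1.31% of all genes fell. Neural markers went both ways, where 0.998% of all genes rose and 1.31% fell. Pax6 read 8.25, 8.06 and 8.87, against 7.40, 7.47 and 7.39 in WT hearts (0.97 ± 0.16, adjusted p = 0.00819). Tubb3, a neuronal tubulin, read 8.59, 8.28 and 8.08, against 9.61, 9.78 and 10.77 in WT hearts (-1.73 ± 0.27, adjusted p = 0.00561), and the remaining 16 of 18 neural genes were not called.

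**Figure D3:**
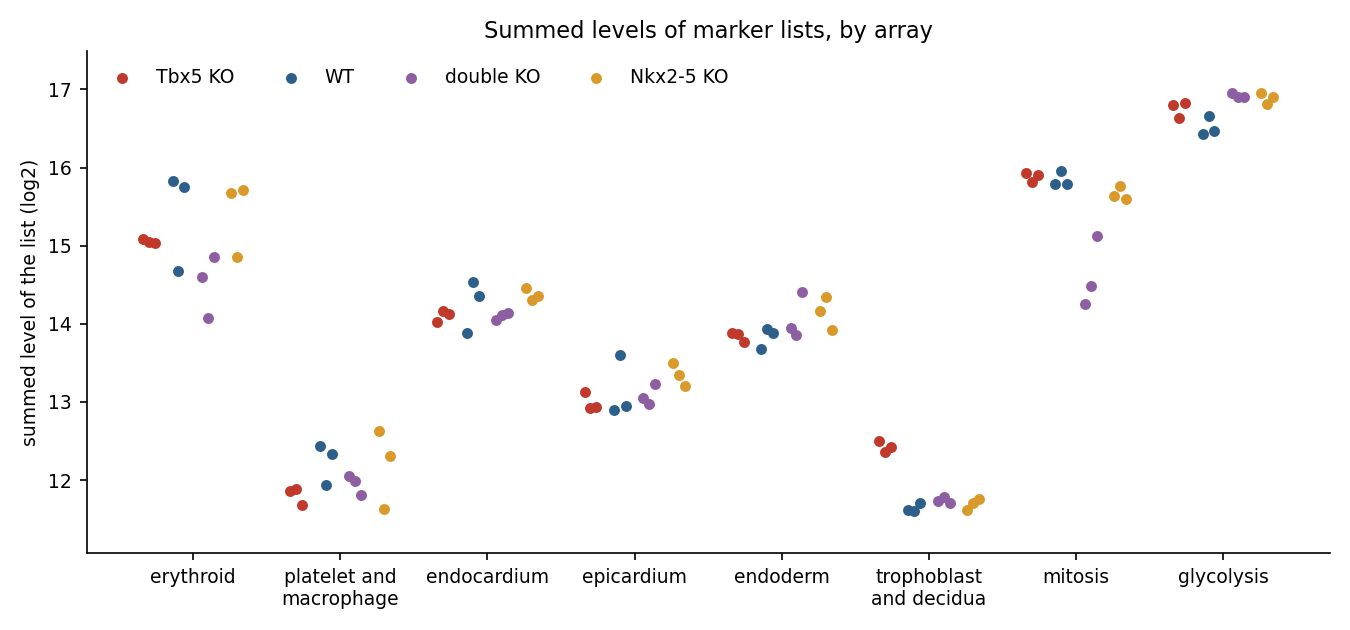
Summed level of 8 gene lists on each array (log2 of the summed linear values, y axis), with Tbx5 KO, WT, double KO and Nkx2-5 KO arrays from left to right in each list. Trophoblast and decidua genes are at 12.36 to 12.50 on the Tbx5 KO arrays and at 11.60 to 11.71 on the WT arrays, and WT replicate 2 is the lowest WT array for erythroid genes.

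Of 19 genes of mitosis and 19 of DNA replication, 0 were called, with medians of 0.05 and -0.18, and the kinase Cdk1 was -0.19 ± 0.23, Plk1 -0.02 ± 0.16 and the proliferation marker Mki67 -0.07 ± 0.24. Of the DNA replication genes 10 were lower and 0 higher without overlap between the groups, where 21.1% of all genes did not overlap. Of the mitosis genes 1 was lower and 1 higher without overlap. Myc, a growth-promoting transcription factor, fell to 9.20, 8.86 and 8.94 in Tbx5 KO hearts, against 10.26, 9.96 and 10.01 in WT hearts (-1.08 ± 0.13, adjusted p = 0.000773). Of 18 G1 genes 2 rose and 2 fell, where 2.31% of all genes were called. The D cyclins went apart, with Ccnd2 higher by 0.51 ± 0.10 (adjusted p = 0.0185) and Ccnd1 lower by 0.66 ± 0.14 (adjusted p = 0.0291). Both calls depended on single arrays: that of Ccnd2 ended without WT replicate 2 (0.0535), WT replicate 3 (0.0643) or Tbx5 KO replicate 1 (0.0723), and that of Ccnd1 without WT replicate 1 (0.113), WT replicate 3 (0.114), Tbx5 KO replicate 2 (0.0861) or Tbx5 KO replicate 3 (0.109), and both ended with only the arrays compared (0.0608 for Ccnd2 and 0.0855 for Ccnd1).

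Oxidative fuel genes fell in 3 cases of 30 and rose in 0, where 1.31% of all genes fell. Cd36, the fatty acid transporter, read 7.65, 8.13 and 7.83 in Tbx5 KO hearts, against 9.94, 9.57 and 9.27 in WT hearts (-1.72 ± 0.25, adjusted p = 0.0041). Idh3a, a subunit of isocitrate dehydrogenase in the citric acid cycle, fell by 0.71 ± 0.11 (adjusted p = 0.00611). Lpl, the lipase that frees fatty acids from lipoproteins, fell by 0.64 ± 0.13 (adjusted p = 0.0214), which ended without any array but WT replicate 3 (0.0579 to 0.0795). That list's median was -0.25, and 27 genes of the respiratory chain had 0 called and a median of -0.11. Glycolysis and hypoxia genes had 1 higher of 23, the glucose transporter Slc2a3 (0.79 ± 0.16, adjusted p = 0.0227), and a median of 0.29. That list moved with WT replicate 2, since 5 were called higher without it and 0 without WT replicate 1 or 3 or Tbx5 KO replicate 1 or 3 (Slc2a3 then at 0.0816 to 0.0884, and at 0.0793 with only the arrays compared). Lists of heat shock (0 of 15), the integrated stress response (0 of 16) and p53 targets (0 of 13) had no called member, and 2 of the integrated stress response genes were called higher without WT replicate 2.

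**Figure D4:**
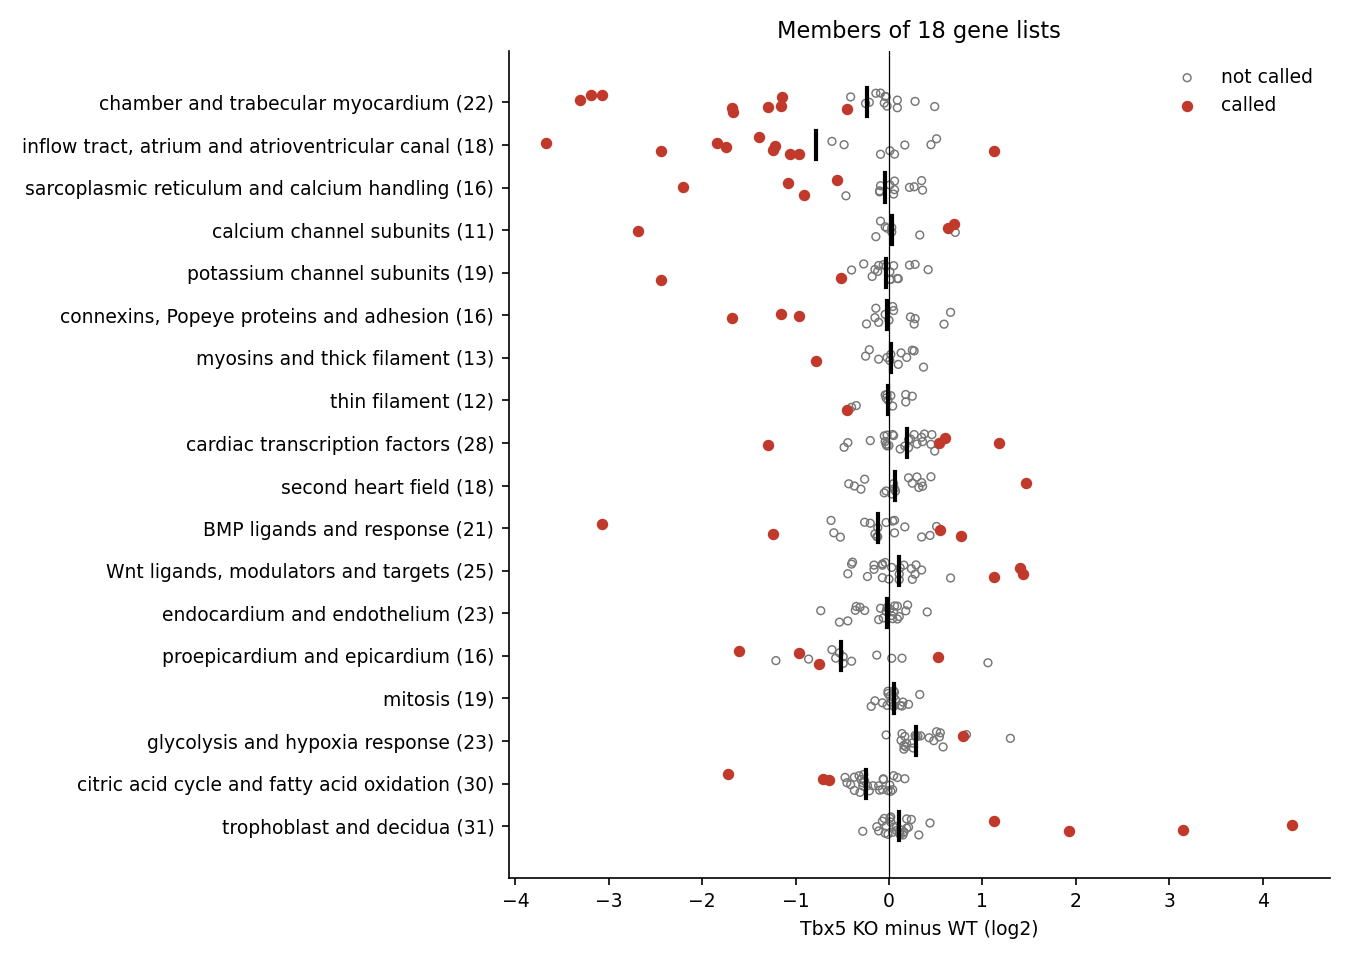
Difference between Tbx5 KO and WT (log2, x axis) of each measured member of 18 gene lists (rows, with the number measured), red where called, with a black bar at the list median. Falls gather in the chamber and inflow lists, where 9 of 22 and 9 of 18 members fell, and the mitosis members lie within 0.33 of 0.

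Several of the largest changes lay outside the groups above. Pvalb, a calcium buffer of fast muscle and neurons, averaged 7.39 ± 0.57 in Tbx5 KO and 9.24 ± 0.47 in WT hearts (SD, n = 3 each), without overlap (-1.85 ± 0.28, adjusted p = 0.00455). Thbs4, a matrix protein of muscle, fell by 1.83 ± 0.23 (adjusted p = 0.0013), and Adgrg6, an adhesion receptor, by 1.78 ± 0.22 (adjusted p = 0.0012). Among the rises, Ddc, which makes dopamine and serotonin from their precursors, read 12.29, 12.10 and 12.27, against 10.67, 11.06 and 10.03 in WT hearts (1.63 ± 0.25, adjusted p = 0.00512). Pde3a, the phosphodiesterase that breaks down cyclic AMP in cardiac muscle, read 10.92, 10.91 and 11.20, against 9.60, 9.59 and 9.12 in WT hearts (1.57 ± 0.13, adjusted p = 5.47e-05). A2m, a protease inhibitor, rose by 2.14 ± 0.25 (adjusted p = 0.000707). Both Ndufa4l2, a mitochondrial protein induced by low oxygen (2.08 ± 0.41, adjusted p = 0.0213), and Igfbp3, which binds insulin-like growth factors (1.57 ± 0.31, adjusted p = 0.02), had a high value in WT replicate 2, at 9.19 and 10.18. Their calls held without that array and ended without WT replicate 3 (0.0921 and 0.0681), Tbx5 KO replicate 1 (0.083 and 0.0604) or Tbx5 KO replicate 3 (0.0813 and 0.0808), and that of Ndufa4l2 also without WT replicate 1 (0.0801). Both also ended with only the arrays compared (0.0819 and 0.0875).

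Genes beside Tbx5 on the chromosome were looked at because a targeted allele can disturb its neighbours. Of the 10 measured genes on each side, 2 rose, where 0.998% of all genes rose, and 0 fell, with a median of 0.05 and a range of -0.48 to 0.89. The 2 were Tesc, a calcium-binding regulator of proton exchange (0.89), and Tpcn1, an ion channel of endolysosomes (0.64). Tesc kept its call only without Tbx5 KO replicate 2 or WT replicate 2 (0.0697 to 0.0811 without the others, 0.0761 with only the arrays compared). Tpcn1 kept its call only without Tbx5 KO replicate 2 (0.062 to 0.092 without the others), and lost it with median centring (0.0586) and with only the arrays compared (0.0699).

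The same loss could be followed in hearts that lacked Nkx2-5, by setting double KO against Nkx2-5 KO arrays, which share no array with the comparison above. That comparison called 1109 genes (5.56%), 202 higher (1.01%) and 907 lower (4.55%), and its count was 521 without double KO replicate 2, 524 without Nkx2-5 KO replicate 1 and 558 without Nkx2-5 KO replicate 2. Of the 262 genes that fell with Nkx2-5 intact, 241 (92%) had the same direction without it and 118 were called the same way, which is 45% of the 262 and 13% of the 907. Of the 199 that rose, 147 (73.9%) had the same direction and 40 were called the same way, 20.1% of the 199 and 19.8% of the 202. Called the opposite way were 1 that fell and 5 that rose. Over all genes 42.4% were lower and 57.6% higher in double KO than in Nkx2-5 KO hearts.

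Several leading falls recurred there. Vsnl1 read 7.83, 7.67 and 7.62 in double KO hearts, against 12.79, 12.61 and 12.68 in Nkx2-5 KO hearts (-4.99 ± 0.19, adjusted p = 4.07e-08). Bmp10 read 7.39, 7.21 and 6.92, against 11.09, 10.34 and 10.65 in Nkx2-5 KO hearts (-3.52 ± 0.21, adjusted p = 4.64e-06). Nppa read 8.01, 8.37 and 8.02, against 11.26, 10.08 and 10.82 in Nkx2-5 KO hearts (-2.59 ± 0.26, adjusted p = 0.000209). The double KO values of Vsnl1 and Bmp10 were close to those of Tbx5 KO hearts. Hcn4 (-0.97 ± 0.18, adjusted p = 0.00851), Angpt1 (-2.14, adjusted p = 0.0001), Hopx (-0.90, adjusted p = 0.000916) and Popdc3 (-0.93, adjusted p = 0.000213) fell as well, and Myocd rose (0.80 ± 0.10, adjusted p = 0.000791).

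For 109 genes (0.547%) the difference between both effects was itself called, and 33 of the 199 that rose and 19 of the 262 that fell in Tbx5 KO were among them. The 199 and 262 genes were chosen by Tbx5 KO minus WT values, which also enter the difference of the effects. Their shares are therefore not independent of that choice. The count of 109 ran from 48 without Nkx2-5 KO replicate 1 to 264 without double KO replicate 3. It was 58, 67 and 55 without Tbx5 KO replicates 1, 2 and 3, 68 and 67 without WT replicates 1 and 3, and 68 and 59 without double KO replicates 1 and 2. Nppb fell with Nkx2-5 intact but read 9.16, 9.79 and 9.07 in double KO, against 10.14, 9.93 and 9.96 in Nkx2-5 KO hearts, where it was already low (-0.67 ± 0.26, adjusted p = 0.155, difference of the effects -2.52 ± 0.37, adjusted p = 0.00923). Kcna5 was at 8.18, 7.72 and 8.06, against 7.95, 8.09 and 8.62 in Nkx2-5 KO hearts (difference of the effects -2.21 ± 0.27, adjusted p = 0.00443). Both genes thus lay low in each of the 3 mutant genotypes. Wnt5a and Lef1 were not called without Nkx2-5 (0.14 ± 0.13 and -0.00 ± 0.13, difference of the effects 1.31 ± 0.18 and 1.40 ± 0.19, adjusted p = 0.0076 and 0.00666). Wnt2 rose in Tbx5 KO and fell in double KO, to 8.29, 8.04 and 7.50, against 8.90, 8.93 and 9.30 in Nkx2-5 KO hearts (-1.10 ± 0.19, adjusted p = 0.00614, difference of the effects 2.22 ± 0.27, adjusted p = 0.00443). Bmp5 showed the same pattern (0.55 with Nkx2-5 intact and -0.50 without, difference of the effects 1.05 ± 0.12, adjusted p = 0.00402). The placental genes were close to their Nkx2-5 KO level in double KO hearts or below it. Erv3 read 7.65, 7.33 and 7.24 in double KO, against 7.50, 7.54 and 7.64 in Nkx2-5 KO hearts (difference of the effects 3.69 ± 0.27, adjusted p = 0.000114).

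Mitosis genes differed in the comparison without Nkx2-5. Of the 19, 19 were called lower in double KO than in Nkx2-5 KO hearts (median -1.05), where 4.55% of all genes were. Between Tbx5 KO and WT hearts 0 were called, and for 6 of the 19 the difference of the effects was called. Their summed level was 14.25, 14.48 and 15.12 on the double KO arrays, and 15.64, 15.76 and 15.60 on the Nkx2-5 KO arrays. In double KO against Nkx2-5 KO the call of Nusap1 ended with only the arrays compared (0.0532), and that of Cenpf without double KO replicate 2 (0.0555). Birc5, a subunit of the chromosomal passenger complex chosen after its values were seen, was 0.07 ± 0.13 with Nkx2-5 intact and -1.40 without it (adjusted p = 0.000119). The sex-linked genes of the arrays went with the Nkx2-5 state. Xist lay between 11.46 and 12.32 on the Tbx5 KO and WT arrays and between 6.44 and 8.16 on the double KO and Nkx2-5 KO arrays, so sex and the Nkx2-5 state cannot be told apart in the difference of the effects or in a direct comparison of Tbx5 KO with Nkx2-5 KO hearts.

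**Figure D5:**
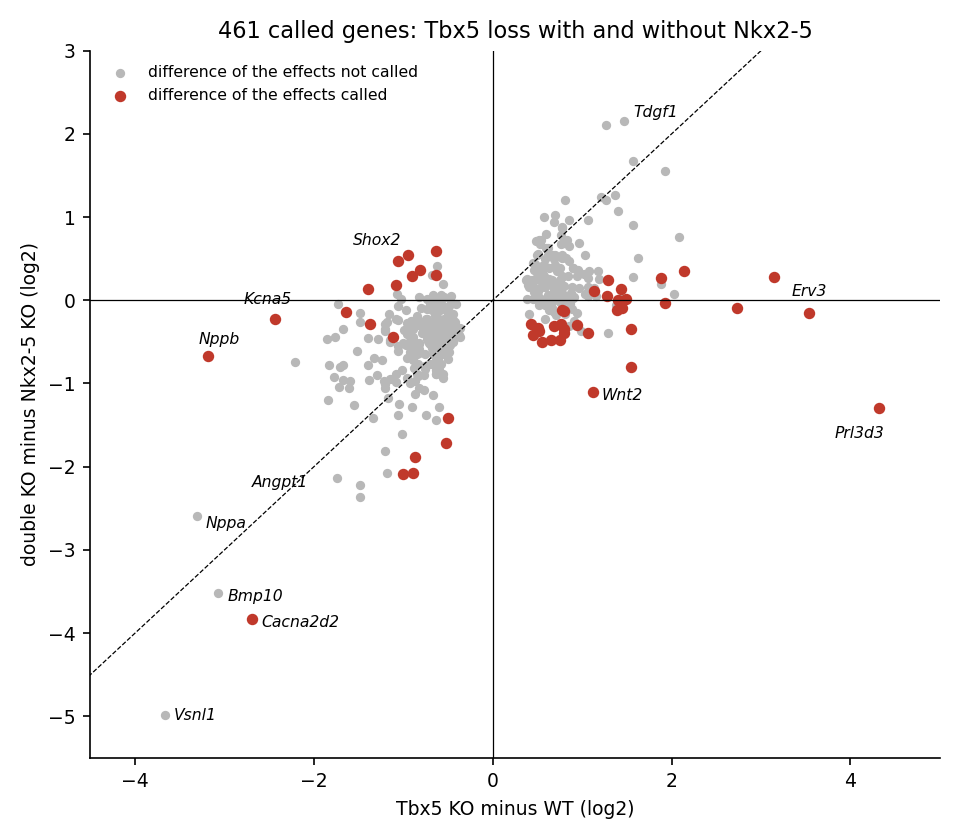
Difference between Tbx5 KO and WT (log2, x axis) against that between double KO and Nkx2-5 KO (log2, y axis) for the 461 called genes, in red where the difference of the effects was called, with a dashed line where both are equal. Vsnl1, Bmp10 and Nppa lie in the lower left, and Erv3, at 3.54 and -0.15, lies at the right near the horizontal axis.

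Set directly against Nkx2-5 KO, Tbx5 KO hearts differed in 476 genes (2.39%), 282 without Tbx5 KO replicate 1 and 254 without Nkx2-5 KO replicate 1. Among the 262 genes that fell against WT, 60 were also lower than in Nkx2-5 KO, 1 was higher and 201 were not called, and among the 199 that rose 83 were also higher, 2 lower and 114 not called. These counts share the Tbx5 KO arrays with the comparison with WT. Genotype and sex cannot be told apart in them, since the Y-linked gene Eif2s3y was at 5.13 to 5.68 on the Tbx5 KO arrays and at 10.33 to 10.67 on the Nkx2-5 KO arrays (-5.20). Vsnl1 (-5.47 ± 0.19, adjusted p = 1.3e-08), Hcn4 (-2.12 ± 0.18, adjusted p = 4.45e-05) and Bmp10 (-3.35 ± 0.21, adjusted p = 4.96e-06) were lower in Tbx5 KO than in Nkx2-5 KO hearts. Hand1 (1.70 ± 0.13, adjusted p = 2.09e-05) and Myocd (1.04 ± 0.10, adjusted p = 6.94e-05) were higher. For Nppa the single losses were not told apart, at -0.66 ± 0.26 (adjusted p = 0.276), and for Nppb at -0.39 ± 0.26 (adjusted p = 0.621).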

How the data were processed

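Gene expression was measured on 12 Affymetrix arrays, 3 per genotype, from hearts at E8.75. Per the labels' protocols, RNA from a PicoPure kit was amplified with NuGEN Ovation, and NuGEN Encore was used for labelling. The authors deposited log2 expression values per probe set, running from 3.21 to 14.7 on the 6 arrays. The summarisation and normalization steps are not stated in these sources, and the number of arrays limits the precision. They were used as deposited. Of 35557 probe sets, 21789 carried 1 gene symbol, 1621 several and 12147 none, and 21698 matched RefSeq by Entrez number. The 999 genes with several were represented by the probe set that was brightest on average over all arrays. Group means over all 12 arrays were fitted with limma 3.58.1 (lmFit, eBayes; R 4.3.3), with Benjamini-Hochberg adjustment over 19938 genes. The fit was tested on simulated data. Scaling, weighting, filters, a replicate block and leaving out single arrays were tried as alternatives. No 2 arrays were identical. Named genes were 23 genes of heart biology, the 12 largest rises and the 12 largest falls without overlap, and up to 6 called members of each of 48 lists (830 of 885 entries measured). Members and lists were chosen with earlier results of these data known, and uncalled list members named beside them were chosen after their values were seen.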

Additional observations from a re-analysis of the deposited data

Results flagged for a closer look

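Of the 109 genes whose difference of effects was called, 20 were among the named genes. Many named genes were chosen by their Tbx5 KO minus WT values, which also enter this difference. For these 20 genes the effect of losing Tbx5 differed between hearts with and without Nkx2-5, by limma's test of that difference over 12 arrays (Tbx5 KO minus WT, less double KO minus Nkx2-5 KO, log2, adjusted p under 0.05). Among genes that fell in Tbx5 KO, the difference of the effects was -2.52 for Nppb (-3.19 with Nkx2-5 intact and -0.67 without), -2.21 for Kcna5 (-2.44 and -0.23), -1.52 for Nr2f1 (-1.39 and 0.13) and -1.52 for Shox2 (-1.06 and 0.47). Among ligands and factors that rose it was 2.22 for Wnt2, 1.40 for Lef1, 1.31 for Wnt5a and 1.05 for Bmp5. For placental and related genes it was 5.62 for Prl3d3 (4.32 with Nkx2-5 intact and -1.30 without), 3.69 for Erv3, 2.87 for Prl8a2, 2.82 for Prl2c5, 1.96 for Prl7a1 and 1.60 for Rhox9. These 14 calls held without each of the 12 arrays in turn.

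The remaining 6 rested on single arrays, and A2m and Nusap1 also lost their calls after quantile normalization again (0.061 and 0.06), after median centring (0.0699 and 0.0778) and over every probe set (0.0546 and 0.0568). The replicate block ended the calls of A2m (0.0897), Nusap1 (0.0772), Cacna2d2 (0.0822), Casq2 (0.0822) and Prl4a1 (0.0787). A2m (1.79) kept its call without 2 of the 12 arrays (adjusted p up to 0.129), Prl4a1 (1.02) without 2 (up to 0.11), Nusap1, a spindle protein (1.35), without 2 (up to 0.134), and Cacna2d2 (1.14, from -2.69 with Nkx2-5 intact and -3.83 without) without 3 (up to 0.11). Casq2 (-1.26) kept it without 4 (up to 0.0991) and Ccn2, a matrix growth factor (-1.23), without 7 (up to 0.0606). Removing Tbx5 KO replicate 3, WT replicate 1 or Nkx2-5 KO replicate 1 ended all 6. Leaving out Tbx5 KO replicate 1, double KO replicate 2 or Nkx2-5 KO replicate 3 ended 5, Tbx5 KO replicate 2, WT replicate 3 or Nkx2-5 KO replicate 2 ended 4, double KO replicate 1 or WT replicate 2 ended 3, and double KO replicate 3 ended 1. Sex-linked genes and the Nkx2-5 state cannot be told apart in these differences.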

How the results depend on the processing

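No named gene called in Tbx5 KO against WT changed sign under any alternative, which does not cover uncalled differences near 0. The balance of Tbx5 KO against WT calls turned without Tbx5 KO replicate 2, to 154 higher and 140 lower. The Tbx5 KO against WT count was 461, 933 with array weights, and 212 to 465 without single arrays (256 without WT replicate 1, 212 without WT replicate 3, 216, 294 and 246 without Tbx5 KO replicates 1, 2 and 3). Double KO against Nkx2-5 KO gave 1109, 2481 with array weights, 570 from a fit to its own 6 arrays and 521 to 1255 without single arrays (524 and 558 without Nkx2-5 KO replicates 1 and 2, 521 without double KO replicate 2). The difference of the effects gave 109, 343 with array weights, 61 with a replicate block and 48 to 264 without single arrays. It was 68 and 67 without WT replicates 1 and 3, 48 without Nkx2-5 KO replicate 1, 58, 67 and 55 without Tbx5 KO replicates 1, 2 and 3, and 68, 59 and 264 without double KO replicates 1, 2 and 3. Tbx5 KO against Nkx2-5 KO gave 476, 1424 with array weights and 254 to 428 without single arrays (254 without Nkx2-5 KO replicate 1, 282 without Tbx5 KO replicate 1). The Tbx5 probe set passed with array weights (0.56, adjusted p = 0.0425) and ran from 0.37 to 0.53 without single arrays. The replicate numbers did not pair arrays: same-numbered deviations correlated at 0.011, -0.188 and -0.118, and 0 of 6 arrays correlated best with their own number. With that block the Tbx5 KO against WT count was 378. Of 80 named calls, 45 held without any 1 array, 79 after quantile normalization again, 75 after median centring, 80 with an intensity trend, 80 with array weights, 56 from a fit to the 6 arrays, 70 with the replicate block and 77 over every probe set, and 72 of the 72 left after dropping dim probe sets (under 7.34). Median centring moved the median difference of all genes to -0.039 from 0.01. The causes were not tested. With 3 arrays per group, differences near the spread between the WT arrays could not be resolved.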

Other observations

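Other genes that changed in Tbx5 KO against WT hearts lay outside the naming rule and were chosen after their values were seen, and each call held without any 1 of the 6 arrays. Among muscle genes, Lmod3, which builds thin filaments, fell by 1.06, Lrrc10, a cardiac leucine-rich repeat protein, by 0.97, Ppp1r3a, which targets a phosphatase to glycogen, by 1.21, and Dsc2, a desmosomal cadherin, by 1.40 on the log2 scale. Further genes that fell were Slit2, a repellent for migrating cells, at -1.33, Ackr3, the scavenging receptor for Cxcl12, at -1.61, Sulf2, which trims heparan sulfate, at -1.15 and Spon1, a floor-plate matrix protein, at -1.55. Among rises, Sfrp4, a secreted Wnt antagonist, was at 1.28, Cfc1, a Nodal co-receptor, at 1.06, Sparcl1, a matrix glycoprotein, at 1.55 and Htra1, a secreted protease, at 1.29. Rhox6, a placental homeobox gene, was at 1.49 and Gzmf, a granzyme, at 1.16. Chromosome X held 33 called genes of 742 tested (4.45%), 10 higher and 23 lower, against 2.31% over all genes. Among Y-linked genes, WT replicate 3 was above the other 5 arrays, with Eif2s3y at 6.92 (5.13 to 5.68 in Tbx5 KO, 5.07 and 5.26 on the other WT arrays) and Uty at 6.67 (5.44 to 6.01 in Tbx5 KO, 5.38 and 5.61 on the other WT arrays).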
